A study of Mus musculus with 2 samples.

Results

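Integrins and laminins, a family of cell surface receptors and a family of their extracellular ligands, were described in newborn mouse forebrain. The members were all protein-coding genes whose symbols name an alpha integrin, a beta integrin or a laminin chain by number (Itga with a number, v or 2b, Itgb with a number, Lama, Lamb and Lamc). The rule took 32 of the 43346 genes in the tables, of which 21474 were protein-coding: 13 alpha integrins, 8 beta integrins and 11 laminin chains. The alpha integrins of leukocytes, whose symbols end in a letter, lay outside the rule and were read as a separate list. The rule used names alone and no measured value, though it was set with earlier results of these data known. The tissue was forebrain at an age of 0 days from mice of the strain B6NTac;B6NCrl/Lap, with no treatment named in the labels and with both sexes pooled. Total RNA longer than the small RNA range was depleted of ribosomal RNA and sequenced as stranded paired ends. There was 1 group with 2 libraries: replicate 1 came from 15 mice and replicate 2 from pooled mice, their number not stated in the labels used. The labels describe independent tissue isolates under a shared donor identifier, so differences between the libraries measure only the spread between these isolates, which may be partly technical. No comparison between conditions could be made.

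An integrin is a pair of 1 alpha and 1 beta subunit that spans the cell membrane and links the matrix outside to the actin cytoskeleton within. A laminin is a cross-shaped trimer of an alpha, a beta and a gamma chain, and laminin trimers form the first sheet of a basement membrane. In the developing forebrain such membranes lie under the meninges, where the endfeet of radial glia attach, and around blood vessels. The alpha subunit largely sets which ligand an integrin binds, and Itgb1 encodes the beta subunit shared by most alpha partners.

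Levels are given as coding TPM, which is the deposited TPM (a transcript level per length) rescaled so that protein-coding genes sum to 1000000 in each library. Errors given with ± are SDs between the libraries (n = 2). The deposited TPM carries 2 decimals, so levels on this scale move in steps of 0.0738 in replicate 1 and 0.0454 in replicate 2. The totals were 62516003 and 65912060 expected counts, of which the members took 0.0521% and 0.0790%. The tissue label was read against markers: all 8 neuron markers and all 8 radial glia markers reached 1 coding TPM in both libraries, with summed levels of 7330 and 7186 for neurons and 2082 and 2095 for radial glia. Markers of bone and cartilage, of skeletal muscle and of choroid plexus differed in sum between the libraries. The 7 bone and cartilage markers summed to 13.1 in replicate 1 and 58.7 in replicate 2, and the 7 skeletal muscle markers to 28.2 and 14.8. The 6 choroid plexus markers summed to 749 and 482, nearly all of it Ttr at 713 and 446. Of the others, Otx2 at 11.2 and 13.9 and Aqp1 at 9.97 and 12.5 were higher in replicate 2. Kl, Folr1 and Kcne2 were lower there. In bulk tissue, fewer cells of a type and less RNA per cell cannot be told apart.

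Of the 32 members, 27 reached 1 coding TPM in both libraries, which is 84.4%, against 63.3% of all protein-coding genes. All 11 laminin chains, 12 of the 13 alpha integrins and 4 of the 8 beta integrins were among them. The exceptions were Itga2, Itgb2, Itgb4, Itgb6 and Itgb7. Most members were nevertheless of modest abundance. Ranked by the mean of both libraries, 12 of 32 lay above the middle of the protein-coding genes, whose medians were 7.46 coding TPM in replicate 1 and 8.81 in replicate 2, and 2 of them, Itgb1 and Itga6, lay above the 75 percentile.

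**Figure D1:**
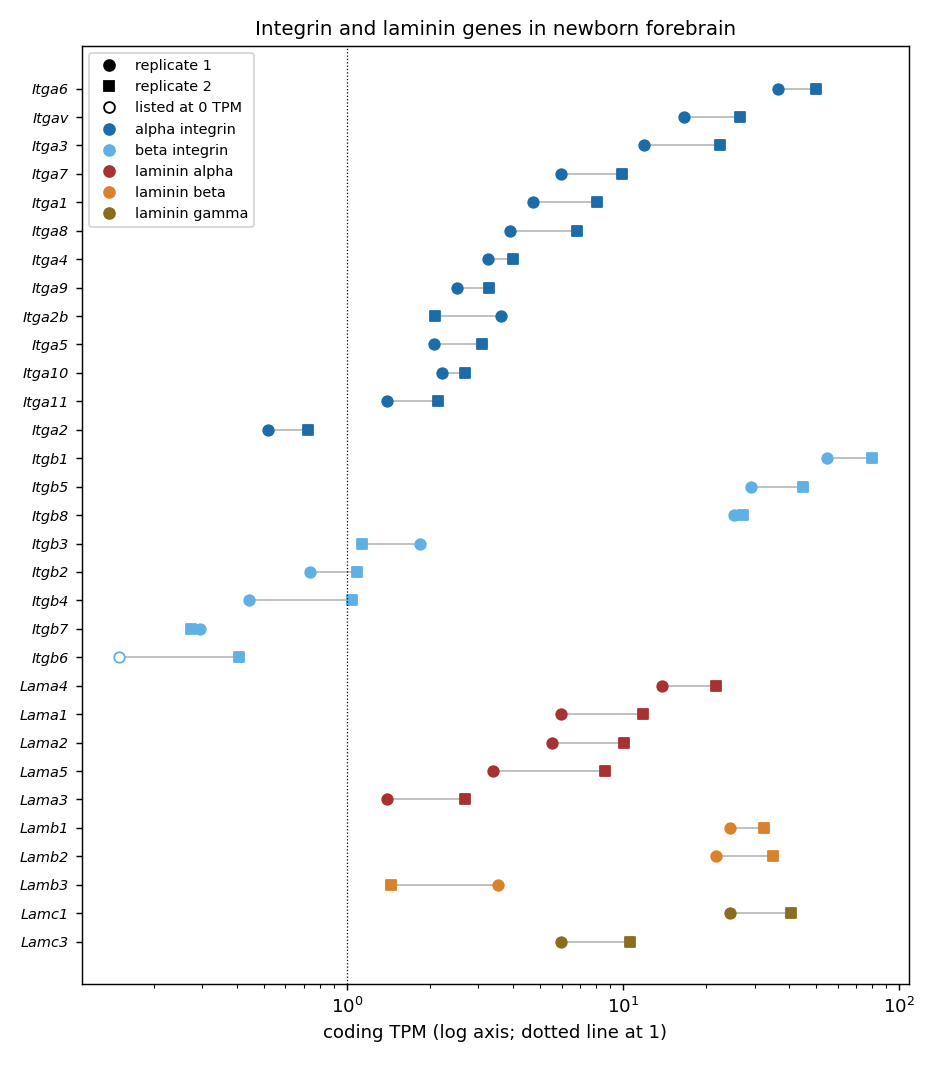
Coding TPM on a log axis for 31 of the 32 members, by class and in order of mean level within a class, with replicate 1 as circles and replicate 2 as squares; the open circle is Itgb6, listed at 0 TPM in replicate 1 and drawn at the edge. Itgb1, Itga6 and Itgb5 lie farthest right, the laminin chains lie between 1.40 and 40.8, and Itga2b, Lamb3, Itgb3 and Itgb7 are the members with a lower coding TPM in replicate 2.

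Itgb1 (ENSMUSG00000025809.11; chromosome 8, 128685654 to 128733200 in mm10, plus strand) stood at 54.9 coding TPM in replicate 1 and 79.5 in replicate 2 (67.2 ± 17.4), from 4292 and 6726 counts. It was the highest member in both libraries, at the 85.2 percentile of protein-coding genes. It held 49.9 ± 1.59% of the summed beta subunits. Its transcripts were almost uniform: Itgb1-201 carried 99.2% and 98.4% of the gene's TPM.

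Itgb5 and Itgb8, beta subunits that pair with the alpha-v subunit, came next. Itgb5 was at 29.1 and 45.1 coding TPM (37.1 ± 11.3), and Itgb8 at 25.3 and 27.3 (26.3 ± 1.44). Together with Itgb1 they made up nearly all of the class, with 27.4 ± 2.18% for Itgb5 and 20.0 ± 3.48% for Itgb8. Itgb8, which encodes a subunit known from neural progenitors for activating latent TGF-beta, was 0.868 times the level of Itgb5 in replicate 1 and 0.605 times in replicate 2, with deposited intervals that did not overlap in either library. The third partner, Itgb3, was far lower, at 1.85 and 1.13 coding TPM, and Itgb5 exceeded it 15.8-fold and 39.7-fold. Itgb6, a partner known from epithelia, was listed at 0 in replicate 1 and 0.409 in replicate 2, on 2 and 13 counts, while the posterior mean TPM, another deposited estimate rescaled in the same way, gave a mean of 16.8 in place of 0.204. The remaining beta subunits, Itgb2 and Itgb7 of leukocytes and Itgb4 of epithelial hemidesmosomes, summed to 1.48 and 2.41 coding TPM. With posterior mean TPM their means were 1.51 for Itgb2, 0.586 for Itgb7 and 1.65 for Itgb4, in place of 0.914, 0.284 and 0.744.

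Among the alpha integrins the laminin receptors Itga3, Itga6 and Itga7 were the highest group, with sums of 54.3 in replicate 1 and 82.8 in replicate 2. Itga6 (ENSMUSG00000027111.11; chromosome 2, 71745616 to 71858416, plus strand) was at 36.3 and 50.3 coding TPM (43.3 ± 9.85), from 2295 and 3857 counts. That is 36.8 ± 2.01% of the summed alpha subunits. Itga3 (ENSMUSG00000001507.12; chromosome 11, 95044474 to 95076801, minus strand), whose product is known from migrating neurons and from radial glia, was at 11.96 and 22.6 coding TPM (17.3 ± 7.50). Itga7, the subunit best known from muscle, was at 5.98 and 9.94. Itga6 thus stood above Itga3 by 3.04-fold and 2.23-fold, with intervals that did not overlap in either library. Over its protein-coding transcripts alone, Itga6 was at 23.0 ± 5.97, the ratio to Itga3 was 1.52 and that to Itgb1 0.346 in place of 0.647.

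The RGD-binding subunits Itgav, Itga5, Itga8 and Itga2b recognise fibronectin, vitronectin and related ligands through a short peptide motif. Their sums were 26.3 and 38.6 coding TPM. Itgav gave most of this, at 16.7 and 26.6 (21.7 ± 7.04), from 2021 and 2804 counts. Itga8, at 3.91 and 6.81, and Itga5, at 2.07 and 3.09, lay well below it: Itgav was 8.07-fold and 8.63-fold above Itga5. Itga8 leaned on noncoding transcripts in replicate 2, where a retained-intron transcript led with 41.7%, and over protein-coding transcripts alone it was at 2.52 ± 0.411. Itga2b, the platelet subunit, was at 3.62 and 2.09 coding TPM but rested on 55 and 59 counts. Its leading transcript was a processed transcript of 623 nt in replicate 1, with 76.7% of the gene's TPM, and over protein-coding transcripts the gene was at 0.457 ± 0.124, against 6.67 with posterior mean TPM.

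The collagen receptors Itga1, Itga2, Itga10 and Itga11 summed to 8.86 and 13.6 coding TPM. Itga1 accounted for more of this than the other members, at 4.73 and 8.04, which was 9.14-fold and 11.1-fold above Itga2. Itga1 and Itga2 are neighbours on chromosome 13, on the same strand with 20995 nt and no other protein-coding gene between them. The gene Pelo lies within Itga1 on the same strand and was itself at 12.8 and 11.3 coding TPM, so reads of the overlapping parts may have been divided between them. Itga4 and Itga9, which share ligands such as VCAM-1 and tenascin-C, were at 3.25 and 4.00, and at 2.51 and 3.27. Their deposited intervals overlapped in both libraries, and no order was assigned to this pair. An antisense gene, Gm2415, overlaps Itga9 and was at 14.4 and 16.2 coding TPM.

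The laminin alpha chains, which carry the main integrin-binding domains, were led by Lama4, a chain typical of vascular basement membranes. Lama4 (ENSMUSG00000019846.7; chromosome 10, 38965515 to 39110188, plus strand) was at 13.8 and 21.7 coding TPM (17.8 ± 5.61), and held 42.7 ± 4.42% of the summed alpha chains. Lama1, known from the meningeal membrane at the brain surface, was at 5.98 and 11.8, and Lama2, the chain of muscle and of vessels, at 5.54 and 10.1. The intervals of Lama1 and Lama2 overlapped in both libraries. Over protein-coding transcripts alone Lama2 was at 3.82 ± 0.700 and 0.460 times Lama1, and a retained-intron transcript led Lama2 in replicate 2 with 52.3%. Lama5, a chain widespread in mature basement membranes, was at 3.40 and 8.63. It was below Lama1 in both libraries, at 0.568 and 0.731 times its level with intervals apart. In replicate 2 they were barely apart, with Lama5 up to 11.287 and Lama1 from 11.298, closer than 1 step of the scale. Lama3, the epithelial chain, was lowest at 1.40 and 2.68.

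Lamb1, Lamb2 and Lamc1 were each more abundant than any alpha chain in both libraries. Lamb1 was at 24.5 and 32.4 coding TPM (28.5 ± 5.59), and Lamb2 at 21.8 and 34.9 (28.3 ± 9.25). Their order differed between the libraries, with Lamb1 over Lamb2 at 1.13 and 0.930, and they were not ranked. With posterior mean TPM, Lamb2 was at 52.3 and the ratio at 0.568. Lamb3, the third beta chain, belongs with Lama3 in the epithelial laminin and was at 3.54 and 1.45, or at a mean of 10.6 in place of 2.50 with posterior mean TPM. Lamc1, the gamma chain of most laminins, was at 24.4 and 40.8 (32.6 ± 11.6). It exceeded Lamc3, at 5.98 and 10.6, by 4.07-fold and 3.84-fold.

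Set side by side, the receptor subunits summed to 208 coding TPM in replicate 1 and 298 in replicate 2, and the laminin chains to 115 and 181. The ratio of the sums was 1.80 and 1.65 (1.73 ± 0.107). The median member showed the reverse, 3.25 and 3.27 for an integrin against 5.98 and 10.6 for a laminin chain, a mean ratio of 0.425. The sum of the receptors therefore rested on few subunits, while every laminin chain reached 1 coding TPM in both libraries. The alpha subunits summed to 95.2 and 142 and the beta subunits to 113 and 156, a ratio of 0.845 and 0.913. The 12 alpha subunits that pair with Itgb1 summed to 1.67 and 1.76 times the level of Itgb1 itself. The laminin alpha and beta chains summed to 30.1 and 49.8 in replicate 1, and to 54.9 and 68.7 in replicate 2. These are RNA levels, and protein assembly was not measured.

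**Figure D2:**
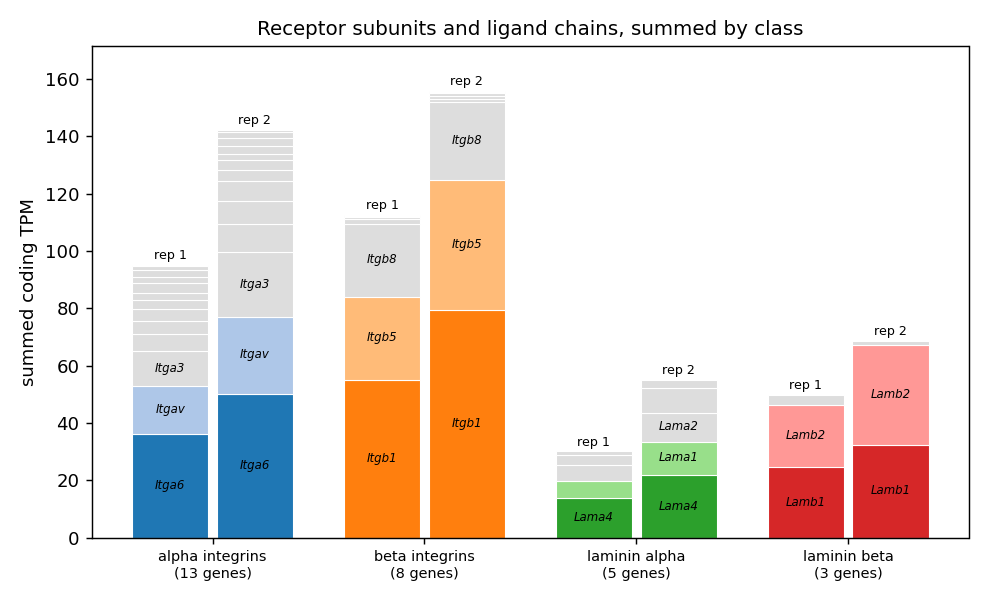
Summed coding TPM of the 13 alpha and 8 beta integrins and the 5 alpha and 3 beta laminin chains, with replicate 1 on the left and replicate 2 on the right of each class and each gene as a segment; the highest gene of a class has the dark colour, the second the light colour and the others are grey. Itgb1, Itgb5 and Itgb8 fill the beta integrin bars, while Lamb1 and Lamb2 share the laminin beta bars about evenly.

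For 8 laminin trimers described in the field, the epithelial laminin not among them, the chain with the lowest RNA was read in each library. In all 8 the lowest chain was the alpha chain, in both libraries. For trimers of Lamb1 or Lamb2 with Lamc1 this only restates that those chains exceeded every alpha chain. Several trimers also share an alpha chain, so the 8 are not separate observations. In the trimer of Lama2, Lamb1 and Lamc3 the intervals of Lama2 and Lamc3 overlapped. In the epithelial laminin, Lamb3 was above Lama3 in replicate 1 (3.54 against 1.40 coding TPM) and below it in replicate 2 (1.45 against 2.68). Of 23 pairs of subunits or chains compared, 19 kept their order in both libraries with intervals apart, 1 changed its order (Lamb1 and Lamb2) and 3 had overlapping intervals (Itga4 and Itga9, Lama1 and Lama2, Itgb5 and Itgb6). The full ranking of the 32 members was less firm between neighbours. Of 31 neighbouring steps, 5 were apart in both libraries, among them Itgb1 over Itga6, Itgb5 over Lamc1, Itga3 over Lama1 and Lama2 over Itga1. In another 19 the libraries did not give the same order: it was opposite, or the genes were level in 1 library. Lama1, Lamc3 and Itga7 were level in replicate 1 at 5.98 coding TPM, as were Lama3 and Itga11 at 1.40. Itga10 and Lama3 were level in replicate 2 at 2.68. For 5 members, Itga9, Itga2b, Lamb3, Itgb4 and Itgb6, the deposited TPM lay outside its own deposited interval in at least 1 library. Their intervals therefore do not describe the TPM beside them. Among the 19 pairs, Itga6 over Itgb4 and Lamb1 over Lamb3 rest on such intervals, as do the overlaps of Itga9 and of Itgb6.

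The main laminin receptors, Itga6 and Itga3, each end in alternative cytoplasmic tails, which are the parts of the receptor inside the cell. An exon kept in the A form carries its own stop codon, and skipping this exon gives the B form, which runs on to a stop codon in the last exon. The annotated A and B transcripts compared here differ at their 5′ exons too, and in Itga6 in where the last exon stops. The exon is number 25 of 26 and has 130 nt in Itga6 and 142 nt in Itga3. The coding ends that differ are shown because they define the forms measured, in lower case from 5′ to 3′ on the coding strand, with the stop codon in capitals; the sequences are from GENCODE M21 transcripts in mm10. They lie at chr2:71853534-71853641 and chr2:71855854-71856015 on the plus strand for Itga6, and at chr11:95046480-95046590 and chr11:95045608-95045763 on the minus strand for Itga3.
Itga6-201 (A): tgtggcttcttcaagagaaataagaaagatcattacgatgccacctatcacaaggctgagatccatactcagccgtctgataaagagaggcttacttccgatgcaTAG
Itga6-202 (B): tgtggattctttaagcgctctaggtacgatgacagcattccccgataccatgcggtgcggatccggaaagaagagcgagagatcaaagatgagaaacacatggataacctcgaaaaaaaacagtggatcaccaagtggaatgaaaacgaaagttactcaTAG
Itga3-201 (A): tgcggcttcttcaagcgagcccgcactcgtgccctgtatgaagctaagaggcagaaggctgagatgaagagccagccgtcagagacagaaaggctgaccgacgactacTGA
Itga3-203 (B): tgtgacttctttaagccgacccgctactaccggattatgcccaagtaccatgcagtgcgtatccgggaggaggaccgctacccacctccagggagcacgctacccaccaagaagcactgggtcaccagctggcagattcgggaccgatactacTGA

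By global alignment, the A ends of the 2 genes were identical at 59.5% of aligned columns and the B ends at 57.4%. The coding ends without the stop codon were 105 and 159 nt in Itga6, and 108 and 153 nt in Itga3.

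In replicate 1 both forms of Itga6 were at the same level, 8.49 coding TPM for A and 8.64 for B, with overlapping intervals. In replicate 2 the A form was at 15.6 and the B form at 9.08, with intervals apart. The A form made up 49.6% of A and B together in replicate 1 and 63.2% in replicate 2. Itga3 gave nearly the same shares: the A form (Itga3-201 and the low Itga3-202) was at 5.32 and 9.99 coding TPM and the B form at 5.98 and 5.22, so that A held 47.1% and 65.7%. In both genes the intervals of the B form overlapped between the libraries, while the A form was higher in replicate 2. With 1 library on each side this difference has no replicate check.

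**Figure D3:**
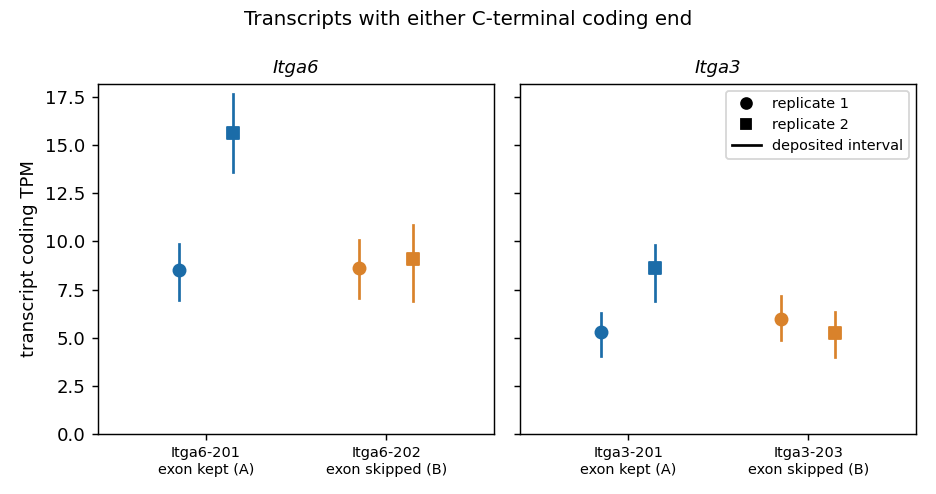
Coding TPM of the transcripts with the exon kept (A, blue) and skipped (B, orange) for Itga6 on the left and Itga3 on the right; circles are replicate 1, squares replicate 2 and vertical lines the deposited intervals. The A transcripts stand above the B transcripts in replicate 2 and lie level with them in replicate 1.

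The leading transcript of Itga6 was neither form. Itga6-203, a processed transcript of 2721 nt with 3 exons, held 33.0% and 43.1% of the gene's TPM, and protein-coding transcripts held 51.6% and 54.2%. Its last exon begins with that of Itga6-202 and reaches 1645 nt farther downstream. Over all members, 24 of 32 had a protein-coding leading transcript in both libraries. Of the 27 members with more than 1 transcript, 17 had the same leader in both. Itga3 and Itgav changed leader between protein-coding transcripts, and Lama3 between its long and its short one, with Lama3-202 at 58.2% in replicate 1 and Lama3-201 at 52.1% in replicate 2.

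The libraries differed in how much matrix and receptor RNA they held. Coding TPM was higher in replicate 2 for 27 of the 31 members listed above 0 in both, but on this scale the median protein-coding gene was also 1.18-fold higher there, so the counts were compared after TMM scaling, which adjusts for composition. The 31 members past the filter of a mean of 10 counts had a median log2 ratio of replicate 2 over replicate 1 of 0.45, against -0.0027 for all 17544 genes tested. Of these members 27 lay above 0, where 49.8% of all genes did. All 11 laminin chains were above 0, with a median of 0.50, and 16 of 20 integrins, with a median of 0.37. Few members passed the full rule of at least 2-fold and an adjusted p under 0.05 (two-sided exact binomial test, Benjamini-Hochberg over all genes tested): 1 of 31, Lamb3, against a background of 10.4% of all genes, 5.51% higher in replicate 2 and 4.94% higher in replicate 1, and 7.3% of protein-coding genes. At an adjusted p under 0.05 with no limit on the fold, 24 of 31 members differed, 23 of them higher in replicate 2, but so did 65.4% of all genes in either direction. This is a test on reads of 1 library against another and says nothing of conditions.

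Lamb3 had 52 counts in replicate 1 and 132 in replicate 2, a log2 ratio of 1.06 (counting SE 0.235; exact binomial adjusted p 1.01e-05). Its coding TPM went the other way, from 3.54 to 1.45. In replicate 1 a processed transcript of 355 nt, Lamb3-207, held 84.5% of the gene's TPM, while in replicate 2 the protein-coding Lamb3-202 held 94.5%. Over protein-coding transcripts alone Lamb3 was at 0.517 in replicate 1 and 1.45 in replicate 2. G0s2, on the opposite strand within Lamb3, was at 10.7 and 5.45. The count of Lamb3 was too small to pass a filter of a mean of 100 counts.

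Just under the limit lay Itgb4, with a log2 ratio of 0.998 (SE 0.230) on 55 and 134 counts, and then Itga10 with 0.91 (SE 0.149), Lama3 with 0.91 (SE 0.116), Lama5 with 0.87 (SE 0.067) and Lama1 with 0.84 (SE 0.050). The abundant members differed less. Itgb1 had a log2 ratio of 0.37 (SE 0.028), Itga6 0.47 (SE 0.038), Lamc1 0.48 (SE 0.032), Lamb2 0.50 (SE 0.038), Lama4 0.45 (SE 0.044) and Lamb1 0.36 (SE 0.036). Itgb8 had a 95% counting interval from -0.069 to 0.052. With the length trend removed its ratio was -0.16 (exact binomial adjusted p 1.78e-06), and with library totals 0.19 (3.66e-09). The interval of Itga8, from -0.14 to 0.25, also held 0, as did the wider ones of Itga2, Itga2b, Itgb2 and Itgb7. Itgb3 was the member with the lowest ratio, at -0.80 (SE 0.152) on 219 and 152 counts. At a limit of 1.5-fold, 9 members were called, 8 of them higher in replicate 2, where the backgrounds were 19.8% and 9.86%.

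**Figure D4:**
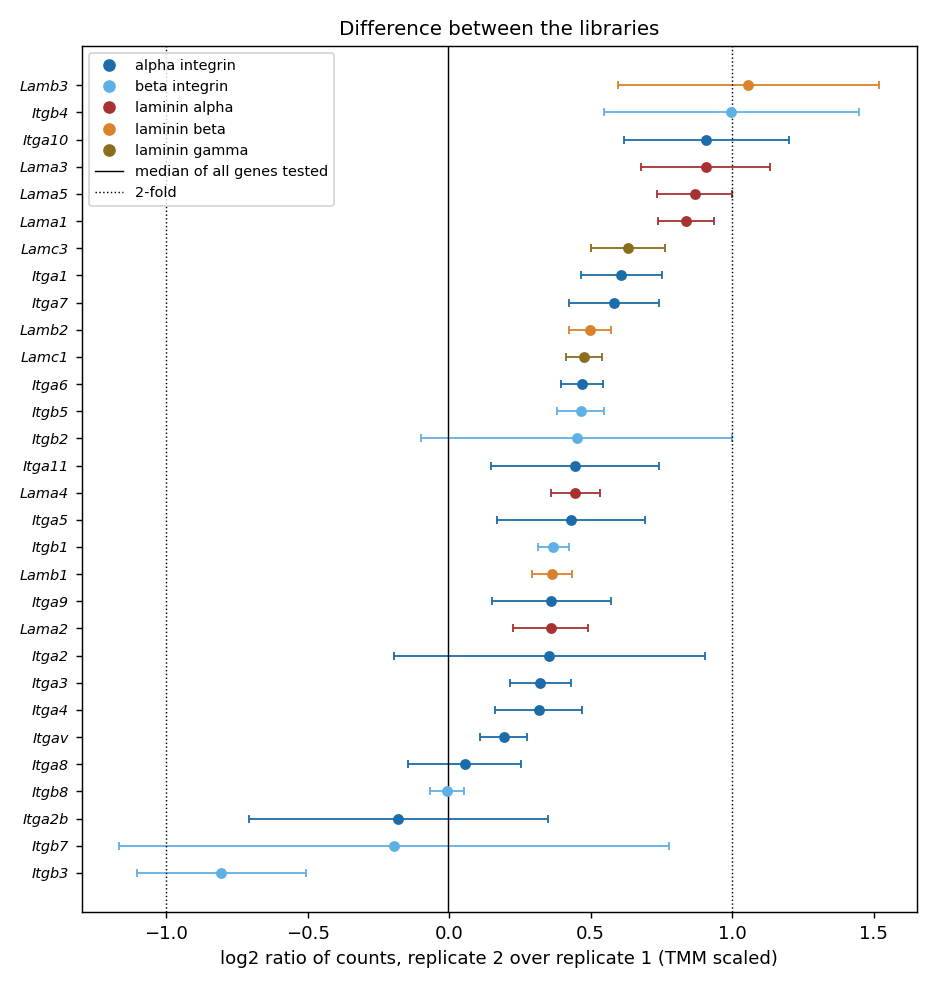
Log2 ratio of counts, replicate 2 over replicate 1 after TMM scaling, for 30 of the 31 members tested, with bars for the 95% counting interval; the solid line is the median of all genes and the dotted lines mark 2-fold. Most members lie right of the solid line, Itgb8 lies on it and Itgb3 lies farthest left.

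Gene length went with the ratio across genes, a spline in length taking 14.0% of the variance of the log2 ratio over 13650 genes. With this trend removed, the median of the members was 0.34 and that of all genes 0.015, and 26 of 31 members were above 0.

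The partners of laminin in the basement membrane showed higher counts in replicate 2 as well. All 7 had positive log2 ratios, with a median of 0.59 and none past the 2-fold rule. Their sum was 418 coding TPM in replicate 1 and 613 in replicate 2, with Agrn (agrin) at 211 and 251, Col4a1 (type IV collagen) at 83.1 and 158, and Col4a2 at 55.2 and 92.1. Hspg2 (perlecan) was the lowest, at 13.4 and 21.7. The 11 other integrin ligands had a median of 0.36, and 1 was called: Spp1 (osteopontin), at 27.5 and 77.5 coding TPM with a log2 ratio of 1.31 (SE 0.063). Tnc (tenascin-C) at 92.4 and 126, Vtn (vitronectin) at 80.1 and 90.8 and Fn1 (fibronectin) at 48.4 and 68.9 had the highest means of these, and Tgfb1 the lowest at 1.48 and 3.00.

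The cytoplasmic partners of integrins went both ways, with log2 ratios from -0.62 to 1.12. The 18 activators and adaptors summed to 577 and 599 coding TPM, with a median log2 ratio of 0.065 over the 17 tested. Ilk (integrin-linked kinase) was at 168 and 156, Ptk2 (focal adhesion kinase) at 56.0 and 52.9, and Rsu1 at 48.4 and 56.2. Of the kindlins, which activate integrins, Fermt2 was at 34.1 and 27.5 and Fermt1 had no counts, which allows up to 3. Parvb (beta-parvin) was the 1 gene called, at 3.77 and 9.03 with a log2 ratio of 1.12 (SE 0.099). The dystroglycan complex, the other main laminin receptor of radial glia endfeet, and the enzymes that glycosylate it summed to 498 and 564 with a median of 0.14, and none of 12 was called. Dag1 (dystroglycan) was at 84.2 and 110, Pomgnt1 at 80.4 and 77.3, Dmd (dystrophin) at 56.2 and 53.0, and Utrn the lowest at 9.30 and 11.9. Dag1 exceeded every integrin subunit in both libraries. Of the other laminin receptors, Bcam was at 11.9 and 18.7, and Rpsa, better known as a ribosomal protein, at 1585 and 1284.

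Markers of cells that make or border basement membranes were read beside these ratios. The 8 endothelial markers had a median log2 ratio of 0.34 and sums of 242 and 315, led by Cldn5 at 148 and 175, with none called. The 8 pericyte and smooth muscle markers had a median of 0.33, with sums of 96.9 and 140 and 2 called (Acta2 at 4.28 and 12.5, Myh11 at 0.591 and 1.73). The 8 meningeal fibroblast markers had a median of 0.81, with sums of 362 and 929 and 3 called: Col1a1 at 25.6 and 171, Col1a2 at 61.3 and 243, and Lum at 5.32 and 13.6. Igf2 was the highest of them, at 147 and 277, and Foxd1 the lowest, at 3.40 and 3.09. Their log2 ratios ran from -0.30 for Foxd1 to 2.57 for Col1a1. Neuron markers had a median of -0.20 and radial glia markers of 0.081, with none called in either. Of the bone and cartilage markers, 4 of 6 tested were called higher in replicate 2, among them Ibsp at 2.51 and 19.5, also an integrin-binding protein of bone. Whether the meningeal list was higher through meninges or through bone and cartilage taken along was not tested. The part of these cell types in the members' ratios was not tested either.

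**Figure D5:**
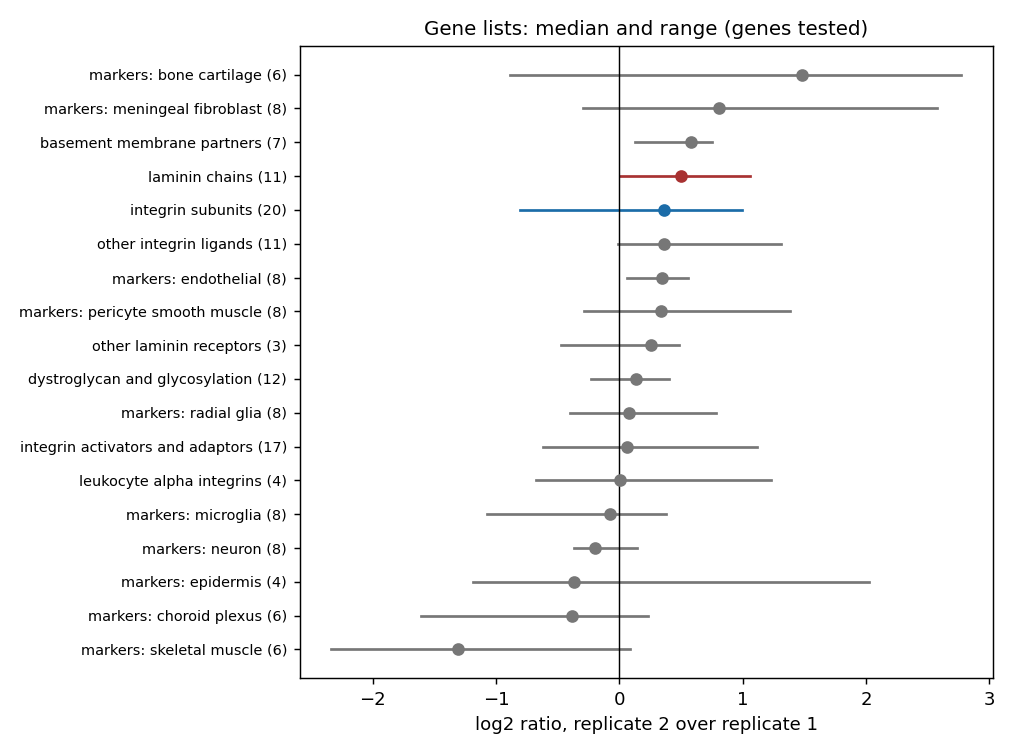
Median log2 ratio (point) and the range from the lowest to the highest gene (line) for the laminin chains in red, the integrin subunits in blue and other gene lists in grey, with the number of genes tested in brackets and a vertical line at the median of all genes. The laminin chains at 0.50 and the integrin subunits at 0.37 lie between the meningeal fibroblast markers at 0.81 and the radial glia markers at 0.081.

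The members named below, best known from blood cells and epithelia, each had a mean under 5 coding TPM. So did the collagen receptors Itga2, Itga10 and Itga11. With posterior mean TPM the means were 16.8 for Itgb6, 10.6 for Lamb3 and 6.67 for Itga2b. The platelet subunits Itga2b and Itgb3 stood beside 7 platelet markers that summed to 26.4 and 42.4 coding TPM, nearly all of it Pf4 at 25.5 and 41.3, while Gp6 had no counts. Itgb2, the leukocyte beta subunit, at 0.738 and 1.09, stood beside 5 leukocyte alpha subunits, of which Itgam was highest at 3.10 and 1.36, Itgal at 0.591 and 0.726 and Itgax at 0.222 and 0.227 followed, and Itgad had the lowest mean, with 0.148 and 0.0454. The 8 microglia markers were all above 1, with sums of 201 and 221 and C1qc, C1qb and C1qa the highest. The epithelial members Itgb4, Itgb6, Lama3 and Lamb3 stood beside 7 epidermal markers with sums of 9.67 and 9.31, most of it Krt1 at 7.31 and 6.99, while Krt5 and Krt15 had no counts.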

How the data were processed

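The authors deposited gene and transcript tables for each library, on mm10 and GENCODE M4 per the text supplied with the samples. The software for alignment and quantification is not given in these sources, though the columns carry RSEM's names. The deposited expected counts can be fractional where genes share reads. The deposited TPM values sum to a fixed total over all features, and the deposited isoform percent is a transcript's share of its gene's TPM, per the file headers. Identifiers were matched to GENCODE M21 for symbols, biotypes and coordinates (42462 of 43346). TPM was multiplied by 7.38 and 4.54 to give coding TPM. Expected counts were rounded, scaled by TMM (edgeR 4.0.16, R 4.3.3) and compared per gene by a two-sided exact binomial test with Benjamini-Hochberg adjustment over all 17544 genes whose mean reached 10 counts. Ratios had 0.5 added to each count, and SEs and intervals cover counting error only, since PCR copies cannot be told from molecules. Sequence ends were aligned globally (match 1, mismatch 0, gap opening -2, extension -0.5). Of the members 31 were named, and the values of 1 are not reported here, though it is counted among the members and in the sums. Members with a mean of at least 5 coding TPM, called members and genes of the pairs were given values, and of each gene list up to 3 of the highest, the lowest and the called genes, while markers of cells on which no result turned were given as sums. Members and lists were chosen with earlier results of these data known. Alternatives were other thresholds, posterior mean values, another denominator, DESeq2 1.42.0 size factors, library totals, other filters, trends in length and GC, and single libraries. The exact binomial test with its adjustment and fold rule was tried on simulated counts, scaled by library totals. These held counting error only, and the other steps were not tried on simulated data. Python 3.11.15 with numpy 2.4.6, scipy 1.17.1 and pandas 2.3.3 was used.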

Additional observations from a re-analysis of the deposited data

How the results depend on the processing

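No paired analysis was possible because the libraries form 1 group. A threshold of 5 coding TPM left 15 members in place of 27, by its own construction. Over protein-coding transcripts alone, 25 members reached 1 coding TPM in both libraries. The ratio of summed integrins to summed laminins was 1.53 with posterior mean TPM and 0.425 as a ratio of medians, which reversed it, and 1.65 to 1.80 in single libraries. The count of members called between the libraries (1) was 2 with DESeq2 size factors (10.5% of all genes), 6 with library totals (11.2%), 3 without a filter (12.9%) and 9 at 1.5-fold (19.8%). With a mean of at least 100 counts it was 0 of 25 (2.77% of all genes). There 22 of the 25 had an exact binomial adjusted p under 0.05 with no limit on the fold, as did 70% of all genes. Library totals moved the median of all genes to 0.19, and the members' median stayed 0.45 above it. Log2 ratios changed sign with library totals for Itgb7 (0.0015), Itgb8 (0.19) and Itga2b (0.017). They did so without the length trend for Itga8 (-0.033) and Itga2b (0.15), and without the length and GC trend for Itga8 (-0.0022) and Itga2b (0.10). The cause was not tested. Leaving out a library gives no difference between libraries. Protein-coding transcripts alone, an alternative chosen after seeing the data, moved the levels of 9 members by more than their SD, and posterior mean TPM those of 8, of 31 members given values. Members under 100 counts carry wide counting errors.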
